A study of Mus musculus with 21 samples.

Results

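The genes described here detect nucleic acid inside cells, relay that signal, degrade cytosolic DNA, or receive type I interferon. They are Mb21d1 (cGAS), Tmem173 (STING), Mavs, Myd88, Ticam1 (TRIF), Tbk1, Irf3, Trex1, Ifnar1 and Ifnar2. They were chosen by name: 10 genes, which have 11 gene IDs (Trex1 has 2) among the 45706 gene IDs of the deposited tables. All 11 rows passed the filter on low counts in every comparison.

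Stranded polyA RNA-seq was used to profile Myc-CaP, a prostate cancer line of mouse origin with a Myc transgene, obtained from ATCC. Wild-type (WT) cells were set against cells in which CRISPR with 1 guide RNA had knocked out (KO) IRE1α, a sensor of endoplasmic reticulum (ER) stress encoded by Ern1. They were sequenced either as cultured cells, with 2 libraries of WT and 2 of each of 3 KO lines (KO1, KO2 and KO3), or as tumours grown in FVB mice, with 4 libraries of WT and 3 of each KO line. The labels name no other treatment and do not give the age of the mice, and they do not say whether the KO lines are single clones or whether the libraries of a cell group came from separate cultures. Only 1 WT line was studied, so the p-values below measure the spread between these libraries and not the spread between WT lines.

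Cytosolic DNA is bound by cGAS, which makes the messenger cGAMP. cGAMP binds STING on the ER, and STING then travels to the Golgi and recruits the kinase TBK1, which phosphorylates the transcription factor IRF3 so that it switches on interferon genes. RNA sensors reach the same kinase through MAVS on mitochondria, and Toll-like receptors reach it through TRIF or signal through MyD88. The nuclease TREX1 degrades cytosolic DNA, and secreted type I interferon is received by the pair IFNAR1 and IFNAR2. Tumour cells as well as myeloid and stromal host cells can use these routes.

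The 3 genes that passed the test in KO against WT cells were Myd88, Tbk1 and Ticam1, and their promoters are shown because the same window was searched for motifs of interferon, stress and Myc response in all members. Each window holds 250 bases before and 50 bases after the RefSeq start site, in build GRCm38.p6, read 5′ to 3′ on the minus strand. The windows are chr9:119339969-119340268 for Myd88, chr10:121586745-121587044 for Tbk1 and chr17:56276718-56277017 for Ticam1. Capitals mark every match to a searched motif.
Myd88: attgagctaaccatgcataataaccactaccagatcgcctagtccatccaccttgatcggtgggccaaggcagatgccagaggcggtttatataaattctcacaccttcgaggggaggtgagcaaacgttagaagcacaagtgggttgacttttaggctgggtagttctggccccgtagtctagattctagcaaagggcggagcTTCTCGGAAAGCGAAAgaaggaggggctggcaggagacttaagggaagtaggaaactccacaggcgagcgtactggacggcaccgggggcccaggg
Tbk1: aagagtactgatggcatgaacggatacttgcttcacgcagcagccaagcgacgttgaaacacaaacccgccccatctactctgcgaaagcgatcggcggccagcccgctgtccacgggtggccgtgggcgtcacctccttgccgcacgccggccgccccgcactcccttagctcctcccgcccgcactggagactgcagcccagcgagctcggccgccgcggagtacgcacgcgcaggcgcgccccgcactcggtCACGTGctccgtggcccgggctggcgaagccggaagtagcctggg
Ticam1: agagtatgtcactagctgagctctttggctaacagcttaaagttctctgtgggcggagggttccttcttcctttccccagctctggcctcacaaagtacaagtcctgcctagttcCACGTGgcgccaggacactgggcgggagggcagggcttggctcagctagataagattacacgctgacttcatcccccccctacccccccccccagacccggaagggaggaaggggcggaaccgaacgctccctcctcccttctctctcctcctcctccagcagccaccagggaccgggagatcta

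The motifs were searched on both strands in the 9 members with a RefSeq promoter that could be used here and in all 32851 promoters of the table. They were the core of the interferon-stimulated response element (GAAANNGAAA), the interferon-gamma activated site (TTCNNNGAA), the unfolded protein response element (TGACGTG), the ER stress response element by its usual core, and the E-box bound by Myc (CACGTG). The Myd88 window held an interferon-stimulated response core starting 40 bases before the start site, which 3.44% of all promoters hold, and an activated site starting 46 bases before it, which 8.30% hold. These matches overlap in the capital run shown. Activated sites were also found in the Ifnar1 and Ifnar2 windows. The Ticam1 window held an E-box starting 135 bases before the start site and the Tbk1 window held one starting 5 bases after it, a motif found in 7.15% of promoters. No member window held the unfolded protein response element, found in 2.01% of promoters, or the ER stress response core, found in 0.119%. A match describes these letters only.

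The cell libraries held 18105500 to 25068300 estimated counts each and the tumour libraries 15994300 to 27497800, to 6 digits. Ern1 RNA was present in all groups, at 121 and 133 CPM (counts scaled to a common library size) in the WT cells and 171 to 200 CPM in the KO cells, so its level did not check the KO labels. Tumours held host cells: the leukocyte gene Ptprc was between 10.4 and 44.0 CPM in all 13 tumours and at most 0.0392 CPM in the cells, and the summed epithelial markers were 1210 to 1794 CPM in tumours against 2741 to 3044 CPM in cells. In WT tumour replicate 1 the 4 neutrophil markers summed to 225 CPM, against 2.42 to 4.85 CPM in the other tumours. Yam1, at a ribosomal RNA locus, held 24.005% of all counts of WT tumour replicate 4. Skeletal muscle markers summed to 0.707 to 3298 CPM in WT tumours, 280 to 718 CPM in KO1, 9.22 to 572 CPM in KO2 and 0.800 to 3.80 CPM in KO3. Fibroblast markers summed to 339 to 1347 CPM in WT tumours, 1316.5 to 1877 CPM in KO1, 475 to 642 CPM in KO2 and 454 to 1069 CPM in KO3. In bulk tissue a change in the number of cells of a type and a change in RNA per cell cannot be told apart.

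The first comparison was KO against WT in cultured cells, with the 3 KO lines as 1 genotype. Of the 11 rows 2 rose, Myd88 and Tbk1, and 1 fell, Ticam1, by edgeR's quasi-likelihood test at an adjusted p under 0.05. Over all 12254 genes tested, 4.99% rose and 9.76% fell. The median log2 difference was 0.14 over the 11 rows and 0.024 over all genes tested, with 8 of the rows above 0.

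Among the adaptors, Myd88, which serves most Toll-like receptors and the interleukin-1 receptors, lay at 17.3 and 16.1 CPM in the WT cell libraries. It lay at 27.4 and 29.2 CPM in KO1, 24.1 and 25.3 CPM in KO2, and 22.2 and 23.6 CPM in KO3. All 6 KO libraries were above both WT libraries. KO cells differed from WT by a log2 value of 0.59 ± 0.12 (SE, n = 6 and 2; edgeR adjusted p = 0.0108). Per line against WT it was 0.76 in KO1, 0.57 in KO2 and 0.42 in KO3. The gene lies at chr9:119335934-119341411 on the minus strand in GRCm38, and 11.3% of its exon bases lie under exons of Acaa1a on the opposite strand.

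Ticam1 encodes TRIF, the adaptor of Toll-like receptors 3 and 4, and moved the other way. It lay at 62.7 and 60.5 CPM in the WT libraries, 30.2 and 32.1 CPM in KO1, 35.8 and 37.5 CPM in KO2, and 46.0 and 45.2 CPM in KO3. All KO libraries were below both WT libraries, and the lines did not overlap each other. On the log2 scale KO minus WT was -0.72 ± 0.14 (SE, n = 6 and 2; edgeR adjusted p = 0.00975), and -0.99, -0.75 and -0.47 in KO1, KO2 and KO3. The lines were thus in the same order for both adaptors, with KO1 farthest from WT and KO3 nearest. Across the 8 cell libraries Pearson's r of Myd88 with Ticam1 on the log2 scale was -0.95, and across the 13 tumour libraries it was 0.60. These r describe libraries that share lines. Ticam1 lies at chr17:56269319-56276786 on the minus strand.

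The kinase gene Tbk1 lay at 27.9 and 28.3 CPM in the WT cells, 32.1 and 34.6 CPM in KO1, 33.6 and 34.1 CPM in KO2, and 37.8 and 38.4 CPM in KO3. Here KO3 was farthest from WT, and no KO library overlapped WT. Tbk1 had a log2 difference of 0.31 ± 0.08 (SE, n = 6 and 2; edgeR adjusted p = 0.0327), the smallest of the 3 that passed. The gene lies at chr10:121546455-121586787 on the minus strand.

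The 3 calls rested on both WT cell libraries. Without WT cells replicate 1 the edgeR adjusted p was 0.108 for Myd88, 0.113 for Ticam1 and 0.290 for Tbk1, and without replicate 2 it was 0.127, 0.0979 and 0.179, with log2 differences that kept their sign. With the libraries summed per line, so that the line was the replicate, none of the 3 passed, with adjusted p of 0.286, 0.273 and 0.398.

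The DNA sensor Mb21d1 and its effector Tmem173 were higher in KO cells without passing the test. Tmem173 was 14.3 and 14.3 CPM in the WT libraries, 18.4 and 17.1 CPM in KO1, 21.1 and 18.5 CPM in KO2, and 29.0 and 27.6 CPM in KO3. All 6 KO libraries lay above WT, with KO3 on top. The log2 difference was 0.60 ± 0.21 (SE, n = 6 and 2; edgeR adjusted p = 0.0777). It passed in DESeq2 (adjusted p = 0.0350), with the lines as separate groups (0.000308) and without KO3 (log2 0.39, adjusted p = 0.0208), the last also being 1.5 times smaller.

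Mb21d1 was scarce in cells, at 3.17 and 2.67 CPM in WT, 5.07 and 5.00 CPM in KO1, 3.86 and 5.23 CPM in KO2, and 4.29 and 2.82 CPM in KO3. KO1 and KO2 were above WT, and KO3 overlapped it. Its log2 difference was 0.57 ± 0.25 (SE, n = 6 and 2; edgeR adjusted p = 0.156), and without KO3 it was 0.71 with an adjusted p of 0.0144. It also passed with the lines as separate groups (edgeR adjusted p = 0.0404) and without KO3 cells replicate 2 (0.0394).

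The other rows had smaller differences in cells. The mitochondrial adaptor Mavs was at 55.3 and 52.1 CPM in WT, 62.5 to 69.0 CPM in KO1 and KO2, and 49.0 and 53.5 CPM in KO3. KO1 and KO2 thus lay above WT and KO3 did not, and the log2 difference was 0.18 (edgeR adjusted p = 0.413). It passed only without KO3 (0.30, adjusted p = 0.00718) among the alternatives run. Irf3, the transcription factor at the end of the route, was at 35.5 and 32.6 CPM in WT and 31.8 to 36.8 CPM in KO1 and KO2, and at 43.2 and 45.5 CPM in KO3.

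Neither receptor gene passed the test in cells with the lines as 1 genotype. Ifnar1 was at 68.9 and 67.2 CPM in WT and 50.6 to 66.0 CPM in the KO libraries, all below WT, with a log2 difference of -0.18 (edgeR adjusted p = 0.241). With the lines as separate groups Ifnar1 did pass (-0.19, edgeR adjusted p = 0.0479). Ifnar2 was at 8.17 and 9.33 CPM in WT and 7.53 to 12.9 CPM in KO, with overlap. The nuclease gene Trex1 had 2 rows. ENSMUSG00000049734 was at 1.99 to 2.07 CPM in WT and 1.06 to 1.94 CPM in KO, and ENSMUSG00000105383 was at 17.9 and 11.7 CPM in WT and 13.5 to 18.6 CPM in KO. All exon bases of the first row lie under exons of Atrip on the same strand, and the second ID is not in the GENCODE M21 annotation used here, so the division of reads between these rows is uncertain. With both rows and Atrip summed, a choice made after seeing the data, the log2 difference was -0.09 (edgeR adjusted p = 0.555).

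**Figure D1:**
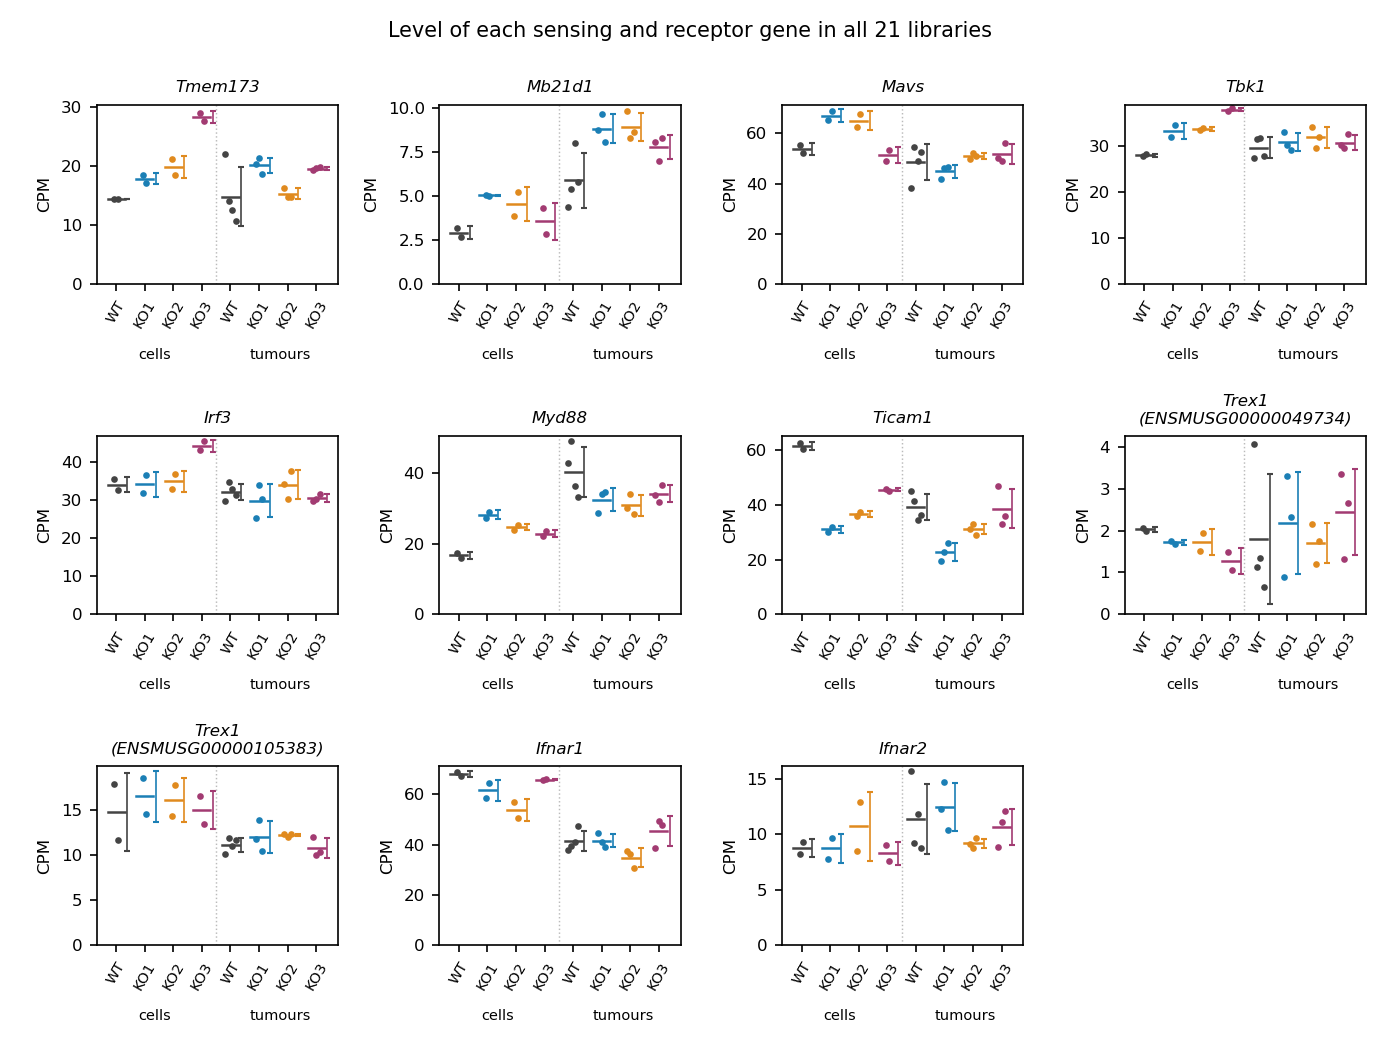
Level of each gene in all 21 libraries. Each panel is 1 gene row, the y axis is CPM from 0, points are libraries, horizontal lines are group means and bars are 1 SD (n = 2 per cell group, 4 for WT tumours, 3 per KO tumour group). Ticam1 is highest in WT cells at 60.5 to 62.7 CPM, Myd88 is lowest there at 16.1 to 17.3 CPM, and Ifnar1 is higher in every cell group than in every tumour group.

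The 3 KO lines differed from each other in cells. Among the lines 5 of the 11 rows passed the F test (edgeR, 2 degrees of freedom), against 30.3% of all genes tested. The median spread of the line differences, measured as the gap from the lowest to the highest line, was 0.41 over the rows and 0.29 over all genes tested. Tmem173 had a gap of 0.64 (edgeR adjusted p = 0.00107), with KO3 highest. Ticam1 had 0.52 (adjusted p = 0.000769), with KO1 lowest, and Mavs 0.42 (adjusted p = 0.00329), with KO3 lowest. Irf3 and Myd88 had gaps of 0.34 and 0.34 (adjusted p = 0.0149 and 0.0264), with KO3 highest and lowest respectively. The call for Myd88 was lost in DESeq2 (adjusted p = 0.155), with the length-scaled table (edgeR adjusted p = 0.142) and without any 1 library of WT, KO1 or KO3 cells (0.0538 to 0.143). That for Mavs was lost without KO3 cells replicate 1 (0.0608), and that for Irf3 without KO3 cells replicate 2 (0.155). Ifnar1 and Ifnar2 passed without KO2 cells replicate 1 (edgeR adjusted p = 0.0220 and 0.0296), and Ifnar2 also without a filter (0.0475).

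The next comparison was KO against WT in tumours. By edgeR 0 of the 11 rows passed, against 1.28% of the 14200 genes tested that rose and 2.37% that fell. At an unadjusted p under 0.05 there were 2 rows, Mb21d1 and Myd88, against 2776 of the 14200 genes, a share near that of the rows. DESeq2 called 1 row, Mb21d1, and 1103 of 23502 genes. The median log2 difference of the rows was 0.025, against 0.0017 over all genes tested.

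Mb21d1 was at 4.36, 5.38, 8.03 and 5.80 CPM in WT tumours 1 to 4. It was at 8.76, 9.70 and 8.07 CPM in KO1 tumours, 9.83, 8.34 and 8.67 CPM in KO2 tumours, and 8.10, 7.01 and 8.30 CPM in KO3 tumours. WT tumour replicate 3 lay within the KO range and the other WT tumours below it. The log2 difference was 0.54 ± 0.15 (SE, n = 9 and 4; edgeR adjusted p = 0.0599, DESeq2 adjusted p = 0.0114), nearly the value in cells. Without WT tumour replicate 3 it was 0.72 (edgeR adjusted p = 0.0277), and without WT tumours 1 and 4, chosen after seeing the data, 0.37 (adjusted p = 0.372). The 8 macrophage markers summed to 503, 319, 322 and 223 CPM in WT tumours 1 to 4 (median 321). In KO tumours (median 419) they summed to 578 to 734 CPM in KO1, 339 to 396 CPM in KO2 and 363 to 556 CPM in KO3. In cells they summed to 1.61 to 2.69 CPM. Their part in the level of Mb21d1 was not tested.

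Tmem173 was at 21.9, 14.1, 12.4 and 10.6 CPM in WT tumours 1 to 4. The KO tumours lay at 18.7 to 21.2 CPM in KO1, 14.7 to 16.3 CPM in KO2 and 19.2 to 19.8 CPM in KO3. WT tumour replicate 1, the library with the neutrophil markers, was above every KO tumour, and the other WT tumours were below every KO tumour. With all WT tumours the log2 difference was 0.31 ± 0.17 (SE, n = 9 and 4; edgeR adjusted p = 0.326), and without that library it was 0.56 (adjusted p = 0.0523). WT tumour replicate 1 also had the highest summed macrophage markers of the WT tumours, at 503 CPM against 223 to 322 CPM. Its Ptprc was the highest of them as well, at 33.3 CPM against 10.4 to 15.8 CPM. The part of neutrophil, macrophage or other leukocyte RNA in its level of Tmem173 was not tested.

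Myd88 was at 42.9, 49.1, 36.4 and 33.3 CPM in WT tumours 1 to 4 and at 28.5 to 36.7 CPM in the 9 KO tumours, with overlap at the lower WT tumours. The log2 difference was -0.31 ± 0.10 (SE, n = 9 and 4; edgeR adjusted p = 0.0987), the opposite sign to cells. Ticam1 was at 44.9, 41.5, 34.3 and 36.4 CPM in WT tumours 1 to 4. It was at 19.5, 22.8 and 26.0 CPM in KO1 tumours, 31.3, 33.1 and 29.2 CPM in KO2 tumours, and 46.8, 33.2 and 36.0 CPM in KO3 tumours. KO1 and KO2 tumours were below every WT tumour, and KO3 tumours overlapped WT. The log2 difference was -0.34 ± 0.17 (SE, n = 9 and 4; edgeR adjusted p = 0.291), and with the lines as separate groups it was -0.39 (adjusted p = 0.0482).

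Among the KO lines in tumours Ticam1 was the only row of the 11 that passed, with a gap of 0.76 between KO1 and KO3 (edgeR adjusted p = 0.0409), against 2.95% of the 14483 genes tested. The call was lost without any 1 tumour other than WT replicate 1 or 4 (adjusted p = 0.0517 to 0.151), with the length-scaled table (0.0587) and with the replicate number as a block (0.0843). The order of the lines, KO1 below KO2 below KO3, was that of the cells. KO1 tumours also had higher summed macrophage markers (578 to 734 CPM) than KO2 (339 to 396 CPM) and KO3 tumours (363 to 556 CPM). Endothelial markers summed to 69.6 to 91.3 CPM in KO1 and 88.8 to 104 CPM in KO3 tumours. The part of host RNA in the gap of Ticam1 was not tested. The other rows differed by less than 0.22 on the log2 scale between KO and WT tumours: Mavs, Tbk1, Irf3, both Trex1 rows, Ifnar1 and Ifnar2.

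Whether the KO effect differed between tumours and cells was tested as an interaction. Of the 11 rows Myd88 passed, with a difference of -0.88 ± 0.18 (SE, n = 21; edgeR adjusted p = 0.0172). Of the 15173 genes tested 0.0989% passed in that direction and 0.863% in the other. The 2 effects behind it were 0.59 in cells and -0.31 in tumours. The call was lost without WT cells replicate 1 or 2 (adjusted p = 0.161 and 0.221, differences of -0.92 and -0.85) and with the length-scaled counts (-1.06, adjusted p = 0.0726) or libraries summed per line (-0.95, adjusted p = 0.810). The median over the rows was -0.13, and 8 of 11 were below 0. For Ticam1 the difference was 0.38 ± 0.27 (edgeR adjusted p = 0.702), and for Mb21d1 it was -0.011 ± 0.26, which did not pass.

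**Figure D2:**
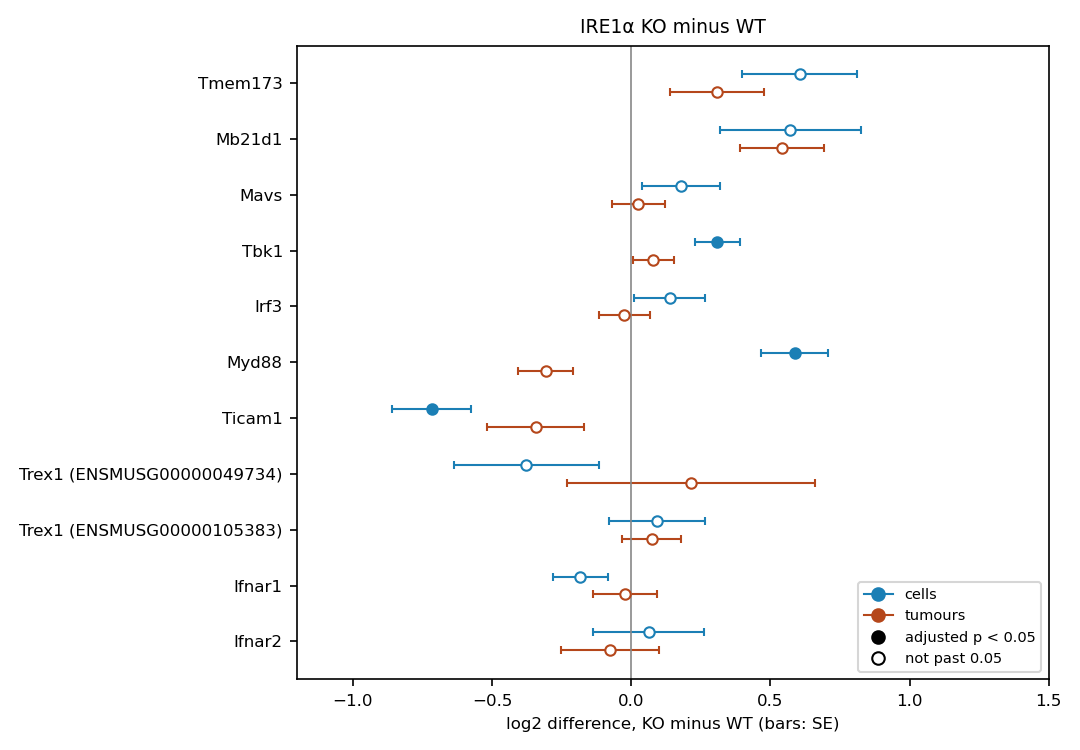
Log2 difference of KO minus WT for each row in cells (blue) and tumours (red), with SE bars; filled points passed an adjusted p of 0.05 by edgeR. Myd88 lies at 0.59 in cells and -0.31 in tumours, while Ticam1 is below 0 at both sites.

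Tumours were then compared with cultured cells. These 2 contrasts compare different libraries, but they were fitted together and share an estimate of spread from all cell and tumour libraries. Their p-values are therefore not independent, and leaving out a library of either genotype can change the calls of both. Each contrast also shares libraries with the comparisons above. In WT 2 of the 11 rows were higher in tumours and 3 lower, against 34.9% and 24.8% of all genes tested. In KO 2 were higher and 5 lower, against 44.1% and 31.4%. The medians of the rows were -0.063 in WT and -0.20 in KO, below those of all genes tested, 0.16 and 0.17.

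Myd88 and Mb21d1 were higher in tumours. Myd88 was 1.30 ± 0.15 higher on the log2 scale in WT and 0.42 ± 0.09 in KO (edgeR adjusted p = 1.43e-06 and 0.000310). Mb21d1 was 1.02 ± 0.22 higher in WT and 1.02 ± 0.13 in KO (edgeR adjusted p = 0.000828 and 1.48e-06). Both genes are also used by myeloid cells, and the summed macrophage markers given above were higher in every tumour than in every cell library. The part of host RNA in these levels was not tested.

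Ifnar1 was lower in tumours, with differences of -0.70 ± 0.11 in WT and -0.53 ± 0.07 in KO (log2 ± SE; edgeR adjusted p = 4.67e-05 and 2.32e-06). All 8 cell libraries, at 50.6 to 68.9 CPM, were above all 13 tumours, at 30.6 to 49.5 CPM. Its partner Ifnar2 did not pass, with log2 differences of 0.41 in WT and 0.27 in KO (edgeR adjusted p = 0.159 and 0.104). The genes lie on chromosome 16 at chr16:91485238-91507441 and chr16:91372783-91405589, both on the plus strand.

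Ticam1 was lower in tumours, with differences of -0.62 ± 0.14 in WT and -0.26 ± 0.09 in KO (log2 ± SE; edgeR adjusted p = 0.00119 and 0.0139). In KO, Mavs and Irf3 were also lower, at -0.26 ± 0.06 and -0.21 ± 0.07 (edgeR adjusted p = 0.00151 and 0.0107), and Irf3 did not pass without KO3 (-0.08, adjusted p = 0.456). The Trex1 row ENSMUSG00000105383 differed by -0.39 in WT and -0.39 in KO (edgeR adjusted p = 0.0493 and 0.00164). The WT call was lost in most of the alternatives run, among them RLE scaling (adjusted p = 0.0798) and leaving out WT cells replicate 1 (-0.08, adjusted p = 0.764). Tmem173 and Tbk1 did not pass at either genotype. Tmem173 differed by 0.09 in WT and -0.20 in KO, and in WT by -0.21 without WT tumour replicate 1. Without that tumour the KO values of Tmem173 and Ifnar2 passed (edgeR adjusted p = 0.0146 and 0.0428). Ifnar2 in KO also passed without KO2 cells replicate 2 (0.0456) and with the length-scaled table (0.50, edgeR adjusted p = 0.00761). Tbk1 in KO was at -0.11 and passed when WT tumour replicate 4, KO1 replicate 1, KO2 replicate 1 or KO3 replicate 3 was left out (edgeR adjusted p = 0.0310 to 0.0486).

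**Figure D3:**
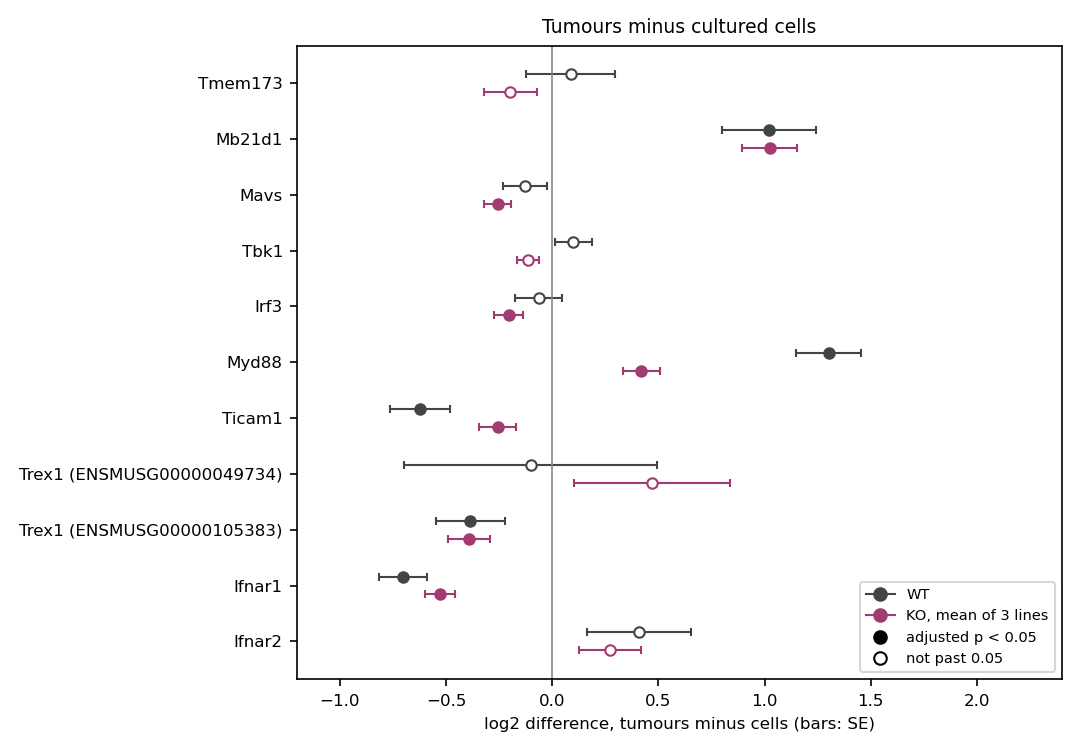
Log2 difference of tumours minus cultured cells for each row in WT (grey) and KO (purple), with SE bars; filled points passed an adjusted p of 0.05 by edgeR. Myd88 and Mb21d1 lie to the right in both genotypes, and Ifnar1 and Ticam1 lie to the left.

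The order of the 8 groups differed by gene. For Ticam1 the order began with WT cells (61.6 ± 1.53 CPM, SD, n = 2) and KO3 cells (45.6 ± 0.531 CPM), each apart from the next, and ended with KO1 tumours (22.8 ± 3.27 CPM, n = 3), also apart. For Myd88 it began with WT tumours (40.4 CPM, n = 4), which overlapped the KO tumours, and its 4 cell groups closed it, each apart from its neighbour in cells, with WT cells last (16.7 ± 0.888 CPM). KO3 cells were on top and apart for Tmem173 (28.3 ± 1.02 CPM), Tbk1 (38.1 CPM) and Irf3 (44.3 CPM). For Mb21d1, Ifnar2 and both Trex1 rows every neighbouring pair of groups overlapped.

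Levels between genes were compared per kilobase of exon. In WT cells Ticam1 was highest, at 20.6 CPM per kilobase, followed by Mavs at 16.1, and Mb21d1 was lowest at 0.708. In WT tumours Myd88 was first at 15.7 CPM per kilobase, followed by Mavs at 14.5 and Ticam1 at 13.1, with Mb21d1 last at 1.43. Tmem173 was at 5.22 CPM per kilobase in WT cells and 5.39 in WT tumours. The receptor pair was uneven, with Ifnar1 at 11.5 and Ifnar2 at 2.63 CPM per kilobase in WT cells.

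The ligands were almost not detected. Of 15 interferon genes in the tables none passed the filter in any comparison. Ifnb1 had 0 counts in all cell libraries together, which allows up to 3 counts in these 8 libraries together, and 4 counts over all 13 tumours. The type II gene Ifng had 8 counts over all tumours and 0 in cells, and Ifnz had 57 counts over all tumours, at most 11 in 1 library.

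Genes that work beside these were counted by list. Of 11 tested genes that carry cGAMP or move and hold STING, 6 fell in KO cells and none rose by edgeR, with a median log2 difference of -0.27, against 9.76% and 4.99% of all genes tested and a median of 0.024. This list and those below were, like the members, chosen with earlier results of these data known, so their counts are a description. Surf4, which returns cargo and STING from the Golgi to the ER, was at 406 and 375 CPM in WT cells and 138 to 160 CPM in KO cells, without overlap. Its log2 difference was -1.38 ± 0.07 (SE; edgeR adjusted p = 3.11e-06). Tmed2 and Sec24c, parts of the vesicle traffic between ER and Golgi, fell by 0.80 and 0.75 on the log2 scale (edgeR adjusted p = 0.000305 and 0.000473). Stim1, which holds STING at the ER, the ubiquitin ligase Rnf5 and the cGAMP importer Slc19a1 were the other members that fell. Surf4, Tmed2 and Sec24c serve secretory cargo in general.

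In tumours 0 of the 12 tested genes of that list passed by edgeR, against 1.28% of all genes tested that rose and 2.37% that fell. The median log2 difference of the list there was -0.18, against 0.0017 over all genes tested. Surf4 had a log2 difference of -0.74 ± 0.20 (edgeR adjusted p = 0.050001, just above the threshold). It was at 286 to 332 CPM in WT tumours, 128 to 166 CPM in KO1 and KO2 tumours, and 235 to 274 CPM in KO3 tumours. Every KO tumour was below every WT tumour, and KO3 lay between. Its lines differed, with a gap of 0.86 (edgeR adjusted p = 0.00241).

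Of 10 tested Toll-like receptor and chaperone genes 5 fell in KO cells and none rose by edgeR, with a median log2 difference of -0.44, against the same shares and median over all genes. Hsp90b1, the ER chaperone that folds most Toll-like receptors and many other proteins, fell by 1.19 on the log2 scale (edgeR adjusted p = 0.000934). Lrrc59, an ER protein that helps move these receptors, fell by 0.63 (adjusted p = 0.00105), and the receptor Tlr6 fell by 1.01 (adjusted p = 0.0187), from 3.75 ± 0.195 CPM (SD, n = 2) to 1.87 ± 0.349 CPM (n = 6). The other members that fell were Cnpy3 and Unc93b1, named after their values were seen. In tumours Lrrc59 fell by 0.40 (edgeR adjusted p = 0.0390), and Tlr3 rose.

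Tlr3, a receptor for double-stranded RNA that signals through TRIF, was at 18.1, 21.9, 20.5 and 18.4 CPM in WT tumours 1 to 4 and 22.7 to 50.6 CPM in KO tumours. The groups did not overlap, and the log2 difference was 0.74 ± 0.18 (edgeR adjusted p = 0.0403). In cells Tlr3 split by line, at 39.9 and 37.9 CPM in WT, 18.3 ± 1.43 CPM in KO1 and 21.2 ± 4.01 CPM in KO2 (SD, n = 2), and 44.0 and 45.8 CPM in KO3. KO1 and KO2 lay below WT and KO3 above it.

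Among cytosolic sensors 0 of 8 tested passed in cells by edgeR, and 1 of 15 rose in tumours, with a median log2 difference of 0.56, against 1.28% of all genes tested and a median of 0.0017. That gene was Ddx58 (RIG-I), at 27.7 to 32.6 CPM in WT tumours and 37.5 to 53.8 CPM in KO tumours, a log2 difference of 0.58 ± 0.10 (edgeR adjusted p = 0.00785). Ifih1 (MDA5) had 0 counts in all 8 cell libraries and was at 3.06 to 6.11 CPM in WT tumours and 4.76 to 11.6 CPM in KO tumours (log2 0.60, edgeR adjusted p = 0.190). Aim2, singled out after its values were seen, was at 3.34 and 3.02 CPM in KO3 cells and at 0 CPM in all KO1 and KO2 cell libraries.

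**Figure D4:**
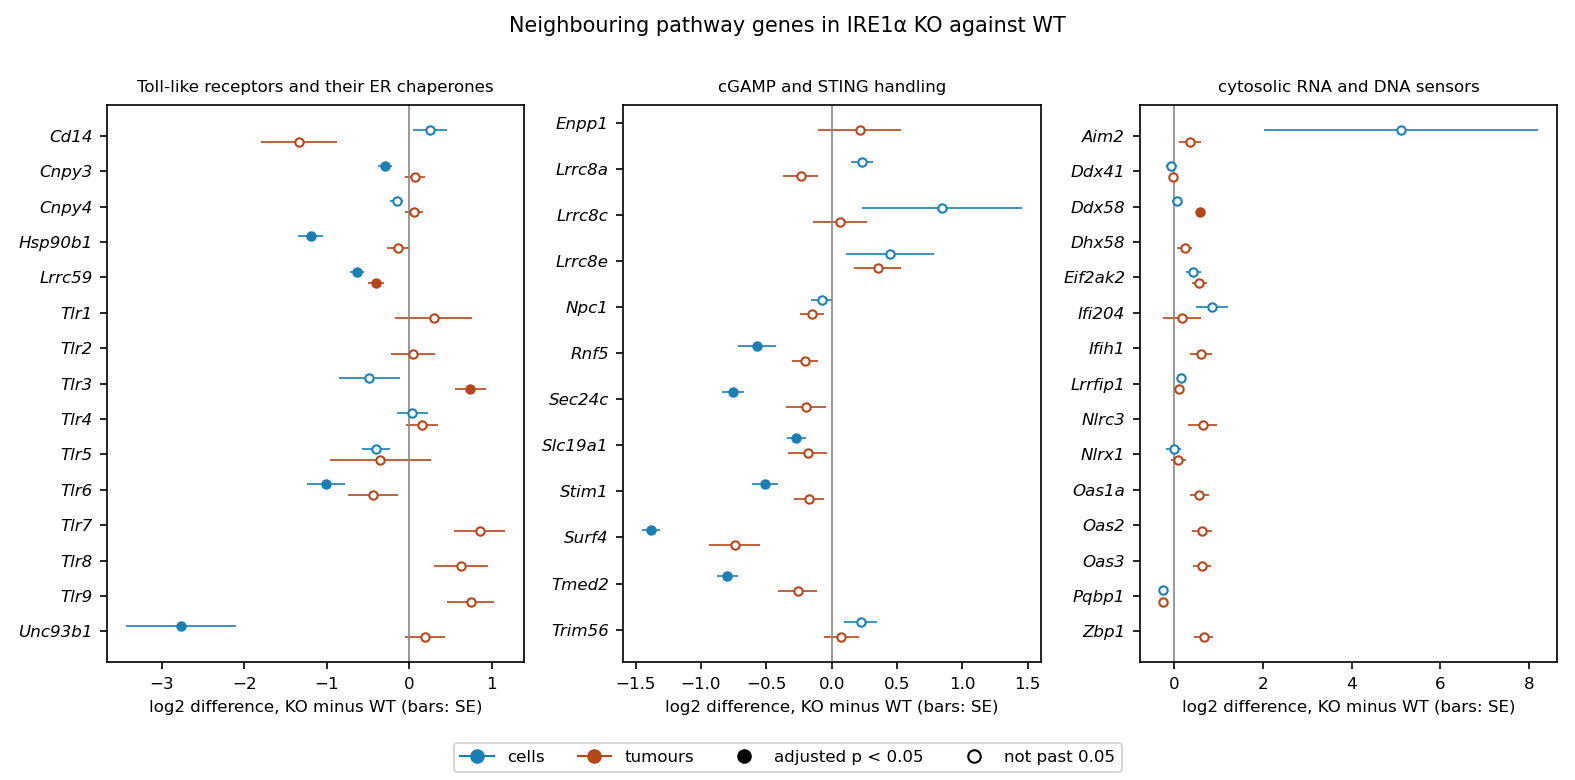
Log2 difference of KO minus WT for 3 lists of neighbouring genes in cells (blue) and tumours (red), with SE bars; filled points passed an adjusted p of 0.05 by edgeR, and genes filtered out in cells have a tumour point only. Surf4 lies at -1.38 in cells and -0.74 in tumours, Hsp90b1 at -1.19 in cells, and Ddx58 at 0.58 in tumours.

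The remaining lists are given beside the shares over all genes tested, 4.99% rising and 9.76% falling in cells and 1.28% and 2.37% in tumours. The lists are too short for their counts to be told from those shares. Of 17 tested adaptors and kinases 1 rose in KO cells, Ripk1, a kinase of the TRIF branch, by 0.37 on the log2 scale (edgeR adjusted p = 0.0201), and of 12 interferon regulatory and NF-kB factors 1 rose, Nfkb2, by 0.44 (adjusted p = 0.0253). By edgeR 0 of 9 nucleic acid clearance genes and 0 of 15 receptor signalling genes passed in cells, and 0 of 20, 13, 11 and 15 genes of these 4 lists passed in tumours. The interferon-induced factors Irf7 and Stat2 had log2 differences of 0.51 and 0.48 in tumours (edgeR adjusted p = 0.0708 and 0.0609). Ptprc was at 10.4 to 33.3 CPM in WT tumours and 12.1 to 44.0 CPM in KO tumours. It is 1 of 4 leukocyte markers, which summed to 116 to 216 CPM in WT tumours (median 158). In KO tumours they summed to 100 to 203 CPM (median 160), with KO3 tumours at 100 to 123 CPM. Other immune marker sums had these medians in WT and KO tumours. Macrophages were at 321 and 419 CPM, and dendritic cells at 4.45 and 6.54 CPM. T and NK cells were at 3.11 and 6.40 CPM, B cells at 0.409 and 0.569 CPM, and neutrophils at 4.20 and 3.55 CPM. Irf7 was at 0.574 to 1.25 CPM in cells and 23.8 to 58.5 CPM in tumours. The part of leukocyte RNA in the values of Irf7 and Stat2 was not tested. In the interaction Hsp90b1 passed, at 1.07 (edgeR adjusted p = 0.0160). Unc93b1 passed as well (edgeR adjusted p = 0.0433), but it was at 0 to 0.267 CPM in KO cells, close to the level of 3 counts, and no fold is given. Trex2 also passed (edgeR adjusted p = 0.00522), with 0 CPM in every KO cell library. It was only at 0.157 and 0.192 CPM in the WT cells, also close to the level of 3 counts, and at 0.336 to 1.21 CPM in tumours.

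For the 6 genes called in KO against WT, in the interaction or among the lines, the most alike genes were sought by Pearson's r of log2 CPM over the 21 libraries among 9504 genes. The libraries fall into cells and tumours, so r also holds the difference between these. For Ticam1 they were Gpi1 (r = 0.93), H6pd (0.92) and Aldoa (0.91), and for Myd88 Cpeb2 (0.90), Mtr (0.89) and Fbf1 (0.89). For Mavs they were Usp4 (0.92), Uhrf1bp1 (0.91) and Tdg (0.89). For Irf3 they were Nsfl1c (0.85), Mcat (0.84) and Hook2 (0.82). For Tmem173 and Tbk1 the likeness was lower, with C1ra (0.81), Abcc3 (0.79) and Marveld1 (0.76) for the first and Ddhd1 (0.81), Etl4 (0.81) and Fam76b (0.80) for the second.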

How the data were processed

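RNA-seq libraries of 8 cultured cell samples and 13 tumours were analysed. The deposited tables give the authors' estimated counts per gene, plain and length-scaled. The submitters' processing notes name GRCm38, STAR, Salmon 1.5.2 and Trim Galore 0.6.7; how strand was set is not given in the sources used here. The plain estimated counts were rounded and tested with edgeR 4.0.16 in R 4.3.3 (filterByExpr, TMM scaling, quasi-likelihood F test, Benjamini-Hochberg adjustment over all genes tested, threshold 0.05). CPM used TMM scaling over all 21 libraries. Changes were counted as higher or lower only past that threshold. Gene positions, exon lengths and overlaps were taken from GENCODE M21, which held 10 of the 11 gene IDs and 45143 of all 45706. Promoters came from RefSeq in GRCm38.p6. The procedure was tested on simulated data. No 2 libraries of a group were copies, since their counts differed by a chi-square of at least 7.98 times its degrees of freedom. This value cannot say whether they came from separate cultures or mice.

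Named were all members, up to 3 passing genes of smallest p per list and comparison, a few genes always given (Ifnb1, Irf7, Stat2, Ddx58, Ifih1, Tlr3, Ptprc and Surf4, and another not reported here), and the 3 genes most like each member called in KO against WT, in the interaction or among the lines (mean log2 CPM of at least 2, prior count 2). Members and lists were chosen with earlier results of these data known. Alternatives were DESeq2 1.42.0, RLE scaling, the length-scaled table, leaving out the filter, lines as groups, libraries summed per line, a replicate block, leaving out each library, no KO3, WT tumours 3 and 4 summed (their descriptions share a number), no WT tumours 1 and 4, and the Trex1 and Atrip rows summed. The last 2 were chosen after seeing the data.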

Additional observations from a re-analysis of the deposited data

Results flagged for a closer look

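The effect of the KO on Myd88 differed between tumours and cells by -0.88 on the log2 scale, by the edgeR interaction test. The KO lines differed among themselves in cells for 5 genes by the edgeR F test, with gaps between the lowest and highest line of 0.64 for Tmem173, 0.42 for Mavs, 0.34 for Irf3, 0.34 for Myd88 and 0.52 for Ticam1. In tumours the lines differed for Ticam1, with a gap of 0.76. The levels of each of the 11 rows were also examined within the WT tumours, the KO cells and the KO tumours, 33 sets of values in all. In none of these did 1 library's level of that gene lie far from the others by Dixon's test. This covers the levels of these genes only, and WT tumour replicates 1 and 4 differ from the other tumours in neutrophil markers and Yam1 as given above. The tumours also differ in skeletal muscle and fibroblast markers, as given above.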

How the results depend on the processing

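Called genes and members (rows of the 10 genes) were recounted under each alternative; the cause of a change was not tested unless the alternative itself has fewer samples. In KO against WT cells, 4780 genes and 6 members passed with the lines as groups, 38 and 0 with libraries summed per line, and 4315 and 6 without KO3. In tumours, 1103 genes and 1 member passed in DESeq2, 332 genes without a filter, 1118 genes and 1 member with the lines as groups, 0 genes with libraries summed per line, 246 with WT tumours 3 and 4 summed, and 89 without WT tumours 1 and 4. In the interaction, 318 genes passed in DESeq2, 599 with the lines as groups, 2 genes and 0 members with libraries summed per line, 0 members with the length-scaled table, 543 genes without KO3 and 96 without WT tumours 1 and 4. Among the lines, 2271 genes passed in cells with the length-scaled table. In tumours 1286 passed in DESeq2 and 1262 without WT tumours 1 and 4, and 0 members with the length-scaled table.

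Leaving out 1 library at a time gave 378 to 2221 genes and 0 to 4 members in KO against WT cells, 154 to 594 genes and 0 to 1 members in tumours, 42 to 192 genes and 0 to 1 members in the interaction, 2094 to 4247 genes and 3 to 7 members among the lines in cells, and 128 to 1095 genes and 0 to 1 members among the lines in tumours. The fewest genes came without WT cells replicate 1, WT tumour replicate 2, WT cells replicate 2, KO3 cells replicate 2 and KO1 tumour replicate 2, in that order of comparisons.

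The replicate numbers were checked for pairing by correlating each library's deviation from its group mean between same-numbered libraries of different groups. In tumours the correlations were -0.61 to 0.22 (18 pairs, median 0.027), and 1 of 13 libraries correlated best with its own number. No pairing was seen there. In cells the correlations were -0.13 to 0.29 (12 pairs, median 0.0056), and 6 of 8 libraries correlated best with their own number. A cell group has 2 libraries, whose deviations mirror each other. The cell values therefore repeat, and they cannot decide whether the cell libraries are paired. With the replicate number as a block, 98 genes passed in tumours and 68 in the interaction, 0 members passed among the lines in tumours, and the log2 value of Ifnar1 in tumours was 0.052. No block was fitted for tumours against cells.

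The values that changed sign had not passed the test to begin with. In KO against WT cells, Ifnar2 was -0.13 with the length-scaled table. In KO against WT tumours, Irf3 was 0.022 with the length-scaled table, Ifnar1 0.027 with libraries summed per line, Mavs -0.025 without KO3, Ifnar1 0.0076 with WT tumours 3 and 4 summed, and Mavs -0.057, Tbk1 -0.0036, Ifnar1 0.034 and Ifnar2 0.057 without WT tumours 1 and 4. In the interaction, Trex1 (ENSMUSG00000105383) was 0.0056 and Ifnar2 0.074 with the length-scaled table, Mb21d1 0.0036 with the lines as groups, Mb21d1 0.020 and Trex1 (ENSMUSG00000105383) 0.0091 with libraries summed per line, and Mb21d1 0.044 with WT tumours 3 and 4 summed. In WT tumours against WT cells, Trex1 (ENSMUSG00000049734) was 0.091 with WT tumours 3 and 4 summed, and Tmem173 -0.049, Mavs 0.011 and Irf3 0.052 without WT tumours 1 and 4.

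Leaving out 1 library at a time, the values that crossed 0 ranged as follows. In KO against WT cells, Trex1 (ENSMUSG00000105383) ranged from -0.16 to 0.40 and Ifnar2 from -0.054 to 0.18. In tumours, Mavs ranged from -0.084 to 0.074, Irf3 from -0.071 to 0.0075, Trex1 (ENSMUSG00000049734) from -0.059 to 0.99, Ifnar1 from -0.070 to 0.043 and Ifnar2 from -0.19 to 0.11. In the interaction, Tmem173 ranged from -0.43 to 0.0010, Mb21d1 from -0.12 to 0.16, Trex1 (ENSMUSG00000105383) from -0.32 to 0.25 and Ifnar2 from -0.25 to 0.10. In WT tumours against WT cells, Tmem173 ranged from -0.21 to 0.22 and Trex1 (ENSMUSG00000049734) from -0.94 to 0.17.

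The call of Tbk1 in KO cells was also lost without a filter (edgeR adjusted p = 0.0574), with the length-scaled table (0.0532), with the replicate block (0.0537) and without KO1 cells replicate 2 (0.0554) or KO2 cells replicate 1 (0.0573). The Trex1 row ENSMUSG00000049734 and Mb21d1 had the fewest counts of the members, and so the widest counting error; the part of depth in their values was not tested.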
